A study of Mus musculus with 8 samples.

Results

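Transcripts of 9 genes of the hepatokine system were examined in diabetic mouse liver. They were Fgf21, its co-receptor gene Klb, the FGF receptor gene Fgfr4, and the secreted factors Ahsg, Fetub, Angptl4, Lect2, Gdf15 and Inhbe. They were chosen with earlier results of these data known. Their features were taken by gene symbol among the 41388 features of the tables, with no filter on level, and all 9 were found. RNA came from liver tissue of 8 db/db mice, which lack a working leptin receptor and become obese and diabetic. Per the labels the strain was C57B/6J, littermates were randomised at 5 weeks of age, and livers were taken at 10 weeks. Both groups received adenovirus through a tail vein: 4 mice the vector for green fluorescent protein (AdGFP), and 4 the vector for nicotinamide phosphoribosyltransferase, the rate-limiting enzyme of NAD salvage (AdNAMPT). Every control thus also carried db/db and an adenovirus. The series text gives 4 to 5 weeks of overexpression. Shorter times after adenovirus delivery are given in the study's methods and in its legend for adipose tissue of db/db mice. The genotype label reads control in AdGFP and NAMPT overexpression in AdNAMPT, and db/db is taken from the titles. The promoter of the transgene and the feeding state at collection are not given in the sources used here. The comparison asks how these transcripts differed in level between NAMPT overexpression and the GFP control.

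Hepatokines are proteins that the liver secretes and that act on other organs. FGF21, a fibroblast growth factor, is released by hepatocytes in fasting and under cellular stress, and acts on adipose tissue and brain through an FGF receptor paired with the co-receptor beta-klotho, the product of Klb. FGFR4, the main FGF receptor of hepatocytes, uses the same co-receptor for the intestinal bile acid signal FGF15. Transcription of Fgf21 is known to be driven by PPAR-alpha in fasting and by ATF4, the effector of the integrated stress response, which also drives Gdf15.

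All 9 are protein-coding genes, placed here on GRCm38. Of the FGF ligand and receptor genes, Fgf21 lies at chr7:45613907-45615490 (minus strand), Klb at chr5:65348386-65384003 (plus strand) and Fgfr4 at chr13:55152640-55168759 (plus strand). The fetuin genes lie on 1 chromosome, Ahsg at chr16:22892042-22899438 (plus strand) and Fetub at chr16:22918382-22939766 (plus strand). The remaining genes are Angptl4 at chr17:33773750-33781575 (minus strand), Lect2 at chr13:56542460-56548538 (minus strand), Gdf15 at chr8:70629393-70632456 (minus strand) and Inhbe at chr10:127349402-127351772 (minus strand). No exonic base of the 9 is shared with another annotated feature (0 overlapping bases on either strand).

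Libraries held 12006713 to 19879814 counts, and 3 counts, taken as the detection floor, were worth 0.151 to 0.250 CPM, where CPM is the count scaled to 1000000 counts of its library. AdNAMPT replicate 1 stood apart: it had the lowest sample weight in the fit (0.440) and was the highest library for 21.5% and the lowest for 22.6% of all genes tested. Nampt, the transferred gene, measured 102.3 to 152.7 CPM in AdGFP and 120.5 to 177.8 CPM in AdNAMPT. The groups overlapped, with an estimated fold of 1.06 (95% confidence interval 0.838 to 1.33, limma adjusted p = 0.915). Nampt counts therefore did not separate the groups, which are named by their labels throughout. The study describes the adenovirus it used on cultured hepatocytes as carrying mouse NAMPT. Whether reads of the transgene were counted under Nampt in these livers was not tested. The 8 hepatocyte markers summed to 94676 to 120654 CPM in AdGFP and 94479 to 118650 CPM in AdNAMPT. The highest value of a single marker was 99419 CPM, so in at least that library 1 transcript made up most of the sum. In bulk liver, fewer cells of a type and less RNA per cell cannot be told apart.

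The sequences just upstream of the start sites are shown for Fgf21, Gdf15 and Inhbe, because these 3 transcripts were at their highest in the same library. They come from RefSeq on GRCm38.p6, whose promoter table held 10 start sites for 8 of the 9 genes; Angptl4 was not among them. Capitals mark matches, on either strand, to TTGCATCA, the core of composite ATF and C/EBP sites, and to CACGTG, an E-box. Both motifs and the genes shown were chosen after values and sequences had been seen. The first window, the 250 bases upstream of Fgf21 at chr7:45615491-45615740, minus strand, lay outside any GENCODE exon or transcript, and reads:
Fgf21: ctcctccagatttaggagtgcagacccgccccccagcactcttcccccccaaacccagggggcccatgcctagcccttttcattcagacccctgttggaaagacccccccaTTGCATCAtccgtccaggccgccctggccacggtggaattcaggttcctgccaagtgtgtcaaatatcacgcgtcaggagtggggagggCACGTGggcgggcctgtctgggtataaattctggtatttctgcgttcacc
Its TTGCATCA lay at bases -139 to -132 from the start, and its CACGTG began at base -50. The same length upstream of the first start site of Gdf15, chr8:70632457-70632706, minus strand, also outside any GENCODE transcript, held neither motif:
Gdf15: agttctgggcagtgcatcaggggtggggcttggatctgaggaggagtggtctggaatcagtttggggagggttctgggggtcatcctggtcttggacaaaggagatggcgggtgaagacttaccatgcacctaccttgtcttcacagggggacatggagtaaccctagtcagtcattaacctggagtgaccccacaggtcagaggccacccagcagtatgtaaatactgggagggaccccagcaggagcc
For Inhbe only the 30 bases around its TTGCATCA are shown, since the window lies in an exon of a longer GENCODE transcript of Inhbe. Beside them stand the matching 30 bases of Fgf21, at chr7:45615611-45615640; those of Inhbe are at chr10:127352011-127352040, and both are on the minus strand:
Fgf21 core: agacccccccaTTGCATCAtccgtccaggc
Inhbe core: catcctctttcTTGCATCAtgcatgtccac
Among the 8 genes, TTGCATCA occurred upstream of Fgf21 and Inhbe, and CACGTG upstream of Fgf21 and of the second start site of Gdf15. The window of that second site overlapped a GENCODE exon of Gdf15, and the CACGTG lay within this exon. Over all 32851 windows of this length in the table, 0.791% held TTGCATCA and 6.02% held CACGTG. A match describes letters only and does not show that a factor binds there.

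Levels of the 9 genes spanned a 3059-fold range in RPKM, the CPM divided by exonic length in kilobases, which allows genes of different length to be set side by side. Ahsg, encoding the abundant serum glycoprotein fetuin-A, stood at the top with a mean of 2918 RPKM over the 8 libraries. It was followed by Lect2, a secreted chemotactic factor, at 173.4 RPKM, and by Fetub, encoding the related fetuin-B, at 80.9 RPKM. These first 3 places held in all 8 libraries, and their ranges did not overlap. Inhbe, encoding the activin beta E subunit, averaged 32.7 RPKM, and Angptl4, an inhibitor of lipoprotein lipase, 27.3 RPKM. Their ranges overlapped, and Inhbe was the higher in 6 of 8 libraries. Klb averaged 16.7 RPKM and Fgfr4 4.25 RPKM, in this order in 8 of 8 libraries.

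At the low end, Gdf15, a stress-induced cytokine that acts on the hindbrain, averaged 2.99 RPKM and overlapped the range of Fgfr4, which was higher in 7 of 8 libraries. Fgf21 was lowest in all 8 libraries, with a mean of 0.954 RPKM, although its highest library exceeded the lowest ones of Gdf15. The other 8 genes passed the study's filter of over 1 CPM in at least 3 libraries. Fgf21 did not pass it and was kept in the fit by exemption.

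**Figure D1:**
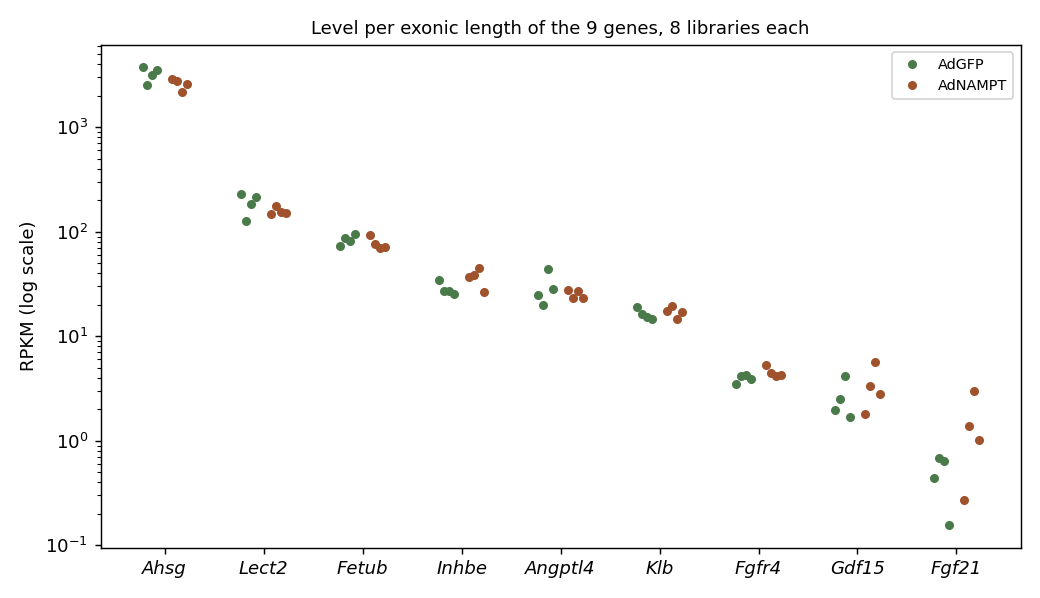
Level per exonic length (RPKM, log scale) of each of the 9 genes, in order of the mean, with one point per library (AdGFP green, AdNAMPT brown). Ahsg lies far above the others, Inhbe and Angptl4 overlap, and Fgf21 has the lowest mean and the widest spread.

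None of the 9 genes changed between AdNAMPT and AdGFP, taking a limma adjusted p of at most 0.05 as changed, nor by edgeR's quasi-likelihood test or DESeq2. In the same limma fit 34 of 12271 genes changed (0.277%), of which 2 were higher (0.0163%) and 32 lower (0.261%). At an unadjusted p under 0.05 there were 4 of 9, beside 9.71% of all genes. Of the 4, Fgf21 was higher, beside 4.65% of all genes, and Ahsg, Lect2 and Fetub were lower, beside 5.05%. The 9 genes were chosen with earlier results of these data known, so these shares are a description only. For none of the 9 were the libraries of the groups fully apart, beside 4.8% of all genes (2.1% higher, 2.7% lower) on CPM scaled by trimmed mean of M values (TMM) and 7.48% on CPM by library size. Estimates were above 0 for 4 genes and below 0 for 5, of which Klb (-0.0035) turned positive with library size alone as the scaling (0.084).

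**Figure D2:**
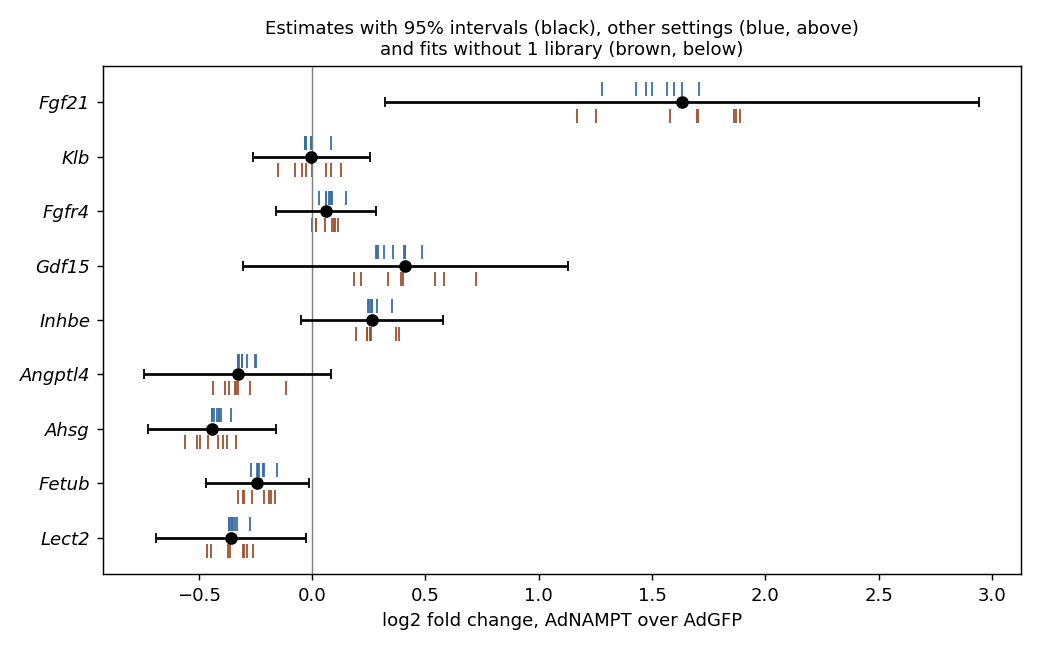
Log2 fold change, AdNAMPT over AdGFP, of each gene with its 95% confidence interval (black), with estimates under other settings (blue) and without each library in turn (brown). The Fgf21 interval is the widest, from 0.32 to 2.94, and that of Klb is centred near 0.

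Fgf21 was the most variable of the 9 transcripts. In replicate order, as for every gene here, AdGFP livers gave 6, 9, 10 and 2 reads of Fgf21, which equal 0.410, 0.635, 0.597 and 0.146 CPM. AdNAMPT livers gave 3, 19, 56 and 16 reads, which equal 0.250, 1.30, 2.82 and 0.943 CPM. AdNAMPT replicates 2, 3 and 4 lay above every AdGFP library, and AdNAMPT replicate 1 lay below 3 of the 4. AdGFP replicate 4 was under the floor of 3 counts and AdNAMPT replicate 1 at it. With so few reads, counting error is large: exact 95% Poisson intervals, which cover counting error only, ran from 2.13 to 3.66 CPM for AdNAMPT replicate 3 and from 0.291 to 1.21 CPM for AdGFP replicate 2. Group means were 0.447 ± 0.224 CPM (SD, n = 4) in AdGFP and 1.33 ± 1.08 CPM (SD, n = 4) in AdNAMPT, whose highest library was 11.3 times its lowest.

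The fitted fold for Fgf21 was 3.10 (95% confidence interval 1.25 to 7.69), which is 1.63 on the log2 scale (SE 0.59). Its unadjusted p was 0.0191 and its limma adjusted p 0.445. AdNAMPT replicate 1, the low Fgf21 library of its group, had the smallest sample weight. Without weights the estimate was 1.28 with an unadjusted p of 0.101, and without AdNAMPT replicate 1 it was 1.89 with an unadjusted p of 0.00453 and an adjusted p of 0.260. In that last fit the groups no longer overlapped for Fgf21, as for 8.88% of genes. Within groups the SD of Fgf21 on the log2 scale was 0.99, above that of 99.2% of genes tested, whose median was 0.178.

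FGF21 is also made by the exocrine pancreas and by fat, so markers of both stand beside its values. Over 8 pancreatic acinar markers, 3 AdGFP libraries held 0 reads and AdGFP replicate 3 held 1, while AdNAMPT replicates 1 and 2 held 1 read each, replicate 3 held 16 and replicate 4 held 13. All 8 markers were under 1 CPM in every library, and Cpa1 and Amy2a5 were at 0 throughout. The library with most Fgf21 reads, AdNAMPT replicate 3, also had most acinar reads and the highest total, 19879814 counts. AdNAMPT replicate 2, with 19 Fgf21 reads, held 1 acinar read, and replicate 4, with 16 Fgf21 reads, held 13. The part of acinar reads in the Fgf21 values was not tested. The 6 adipocyte markers summed to 26.8 to 35.1 CPM in AdGFP and 18.2 to 35.1 CPM in AdNAMPT. Most of this was Fabp4, with means of 29.9 CPM in AdGFP and 26.0 CPM in AdNAMPT. Of the 6 markers, 4 were under 1 CPM in every library.

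Estimates for the co-receptor gene Klb and the receptor gene Fgfr4 were close to 0. Klb, the obligate co-receptor, measured 66.2, 56.1, 53.4 and 50.4 CPM in AdGFP and 61.0, 67.5, 50.5 and 58.9 CPM in AdNAMPT. The groups interleaved, and the fold of 0.998 had a 95% confidence interval of 0.834 to 1.19 (limma adjusted p = 0.996). Fgfr4 measured 12.4, 14.9, 15.2 and 13.7 CPM in AdGFP and 18.9, 15.7, 14.7 and 15.0 CPM in AdNAMPT. Its highest library was AdNAMPT replicate 1, the other AdNAMPT values fell among or close to the AdGFP values, and the fold was 1.04 (0.896 to 1.22, adjusted p = 0.887).

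Other receptors that can pair with klotho proteins were also present, here named after their values were seen. Mean levels over the 8 libraries were 5.13 RPKM for Fgfr2, 4.62 RPKM for Fgfr3 and 0.299 RPKM for Fgfr1, the receptor through which FGF21 acts in fat, beside the 4.25 RPKM of Fgfr4. Kl, encoding alpha-klotho, averaged 0.177 RPKM. On CPM by library size Fgfr3 ran from 23.2 to 31.4 in AdGFP and from 32.4 to 38.0 in AdNAMPT without overlap, as 7.48% of all genes did in either direction. On TMM-scaled CPM the groups overlapped, with AdGFP replicate 1 at 32.9 above AdNAMPT replicate 2 at 32.3. Its log2 fold change in the fit was 0.20 with SE 0.09 and an adjusted p of 0.527.

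**Figure D3:**
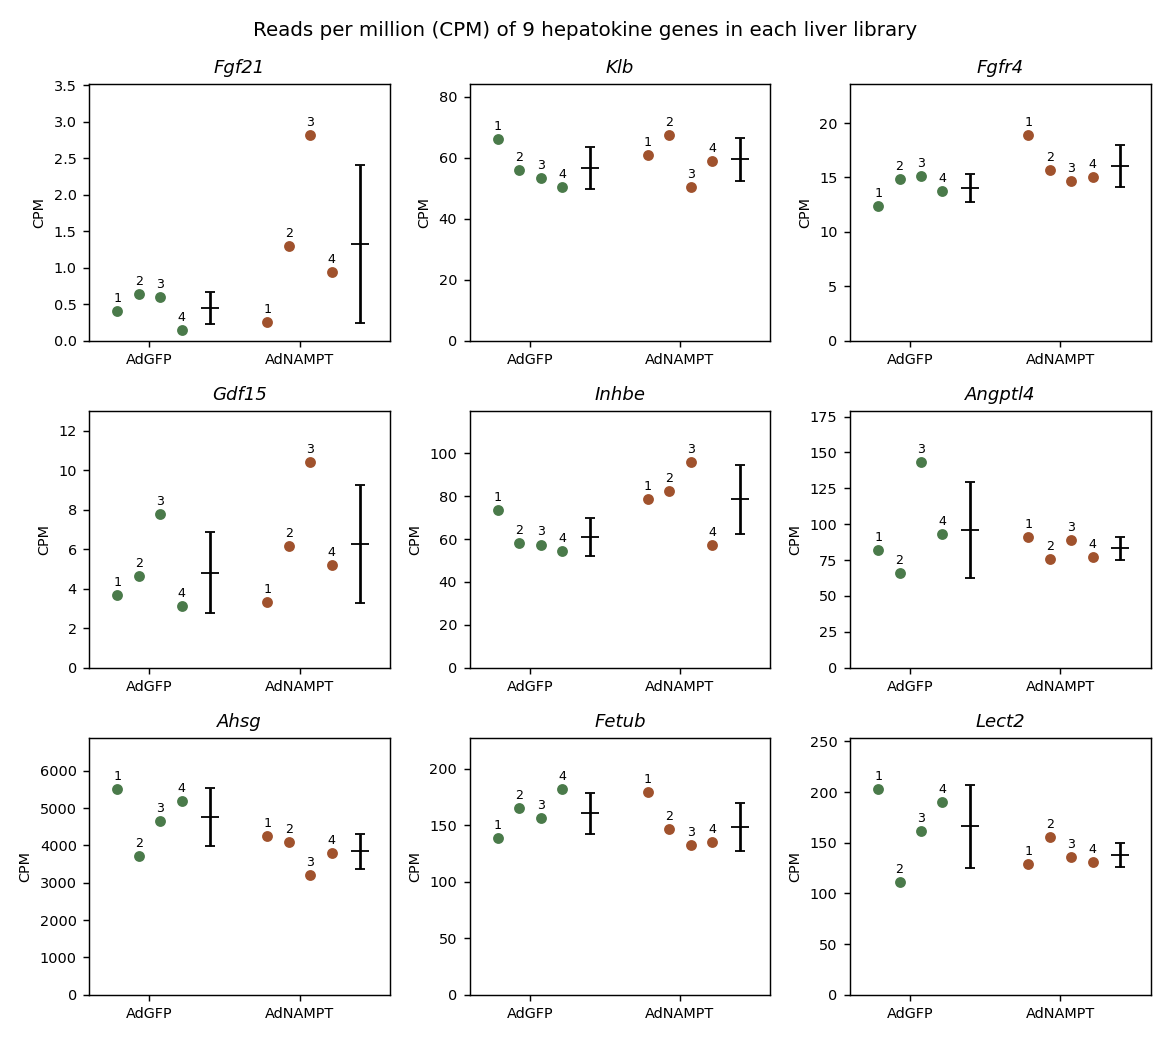
CPM of each of the 9 genes in every library, one panel per gene with its own axis from 0; points are libraries, and bars mark each group's mean and SD. The groups overlap in every panel, and the AdNAMPT points of Fgf21 and Gdf15 are the most spread.

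Both fetuins had estimates below 0. Ahsg, whose product binds the insulin receptor and calcium phosphate in serum, measured 5500, 3725, 4649 and 5186 CPM in AdGFP and 4251, 4099, 3201 and 3797 CPM in AdNAMPT. All AdNAMPT libraries lay below 3 of the AdGFP libraries, and AdGFP replicate 2 fell among them. The fold was 0.736 (95% confidence interval 0.605 to 0.895), the smallest unadjusted p of the 9 genes at 0.00545, and the limma adjusted p was 0.358. Fetub, which lies on the same chromosome as Ahsg and whose product inhibits the protease ovastacin, measured 139.0, 165.1, 156.5 and 181.9 CPM in AdGFP. In AdNAMPT it measured 179.6, 147.0, 132.9 and 135.5 CPM. AdNAMPT replicate 1 was among the highest and the other 3 among the lowest 4, and the fold was 0.846 (0.722 to 0.992, unadjusted p = 0.0411, adjusted p = 0.502).

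Lect2 measured 202.7, 111.1, 161.3 and 189.8 CPM in AdGFP and 128.7, 155.4, 136.2 and 131.5 CPM in AdNAMPT. AdGFP replicate 2 lay below every AdNAMPT library and the other 3 AdGFP libraries lay above them all. The fold was 0.781 (0.621 to 0.983, unadjusted p = 0.0375, limma adjusted p = 0.495). Without AdGFP replicate 2, the groups no longer overlapped for Ahsg and Lect2, beside 8.92% of all genes, and the adjusted p for each was still above the threshold.

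Angptl4 measured 82.1, 65.7, 143.2 and 93.3 CPM in AdGFP and 91.0, 75.7, 89.2 and 76.9 CPM in AdNAMPT. The 4 AdNAMPT libraries lay within the AdGFP range, which AdGFP replicate 3 extended upward. The fold was 0.797 (0.599 to 1.06, limma adjusted p = 0.629), and the coefficient of variation was 34.8% in AdGFP and 9.68% in AdNAMPT. The difference in spread was not tested.

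Gdf15 and Inhbe, both members of the TGF-beta superfamily, had estimates above 0. Gdf15 was counted at 54, 66, 130 and 43 reads in AdGFP and 40, 90, 207 and 88 reads in AdNAMPT. These equal 3.69, 4.66, 7.77 and 3.14 CPM in AdGFP and 3.33, 6.15, 10.4 and 5.19 CPM in AdNAMPT. Replicate 3 was the highest of its group in both groups, and AdNAMPT replicate 1 lay below 3 of the 4 AdGFP libraries, or all 4 on TMM-scaled CPM. The fold was 1.33 (0.810 to 2.18, limma adjusted p = 0.734), with a within-group SD of 0.61 on the log2 scale, above 96.5% of genes.

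Inhbe measured 73.7, 58.0, 57.5 and 54.6 CPM in AdGFP and 78.9, 82.4, 95.9 and 57.2 CPM in AdNAMPT. AdNAMPT replicates 1, 2 and 3 lay above every AdGFP library on this scale and replicate 4 among the lower ones. On TMM-scaled CPM AdNAMPT replicate 1 (76.4) lay below AdGFP replicate 1 (77.4). The fold was 1.20 (0.968 to 1.49, limma adjusted p = 0.594).

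One library recurred at the ends of these ranges, a pattern noticed after the values were seen. On TMM-scaled CPM, AdNAMPT replicate 3 was the highest of the 8 libraries for Fgf21, Gdf15 and Inhbe and the lowest for Klb, Ahsg and Fetub. Over all genes tested it was the highest for 12.7% and the lowest for 12.2%. Without it the log2 estimates were 1.25 for Fgf21, 0.19 for Gdf15, 0.26 for Inhbe and -0.33 for Ahsg. AdNAMPT replicate 1, the library of lowest weight, was the lowest of its group for Fgf21, Gdf15 and Lect2. It was the highest of its group for Fgfr4, Ahsg, Fetub and Angptl4. Without it the estimates were 0.54 for Gdf15, 0.24 for Inhbe, 0.02 for Fgfr4, -0.05 for Klb, -0.49 for Ahsg, -0.30 for Fetub, -0.36 for Lect2 and -0.34 for Angptl4, and none of the 9 genes changed.

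The genes most like Fgf21 were ranked by Pearson's r of log2 TMM-scaled CPM over the 8 libraries, as a description that the shared libraries and the low counts of Fgf21 limit. Klf10, an immediate-early transcription factor gene, came first of 12270 genes with r = 0.978. It measured 24.3, 22.6, 24.8 and 16.4 CPM in AdGFP and 19.3, 30.7, 43.7 and 30.5 CPM in AdNAMPT, with the same low library in each group as Fgf21. Next were Gm10801 at r = 0.958, Mpc1-ps at 0.957, Myo9b, encoding an unconventional myosin, at 0.952, and Gm11788 at 0.952. Mpc1-ps is annotated as a processed pseudogene and Gm11788 as antisense, so their counts are uncertain. Gm10801 swung widely, from 0.438 CPM in AdGFP replicate 4 to 25.6 CPM in AdNAMPT replicate 3. None of the 5 changed, with adjusted p from 0.426 to 0.629. Of the other hepatokine genes Gdf15 was most like Fgf21 (r = 0.869, rank 61), followed by Inhbe (r = 0.530, rank 1531). Ahsg (r = -0.767) and Fetub (r = -0.806) ran opposite to it.

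Genes around the 9 were taken from 8 lists by role, and none of the 134 tested genes on them that are not among the 9 changed, beside 0.277% of all genes. At an unadjusted p under 0.05 there were 19 (14.2%, beside 9.71% of all genes), 5 higher and 14 lower. The lists, too, were chosen with earlier results of these data known, so this share is a description only. The lists are described by their counts above and below 0 and their median log2 fold change, beside a median of 0.0015 over all genes tested.

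**Figure D4:**
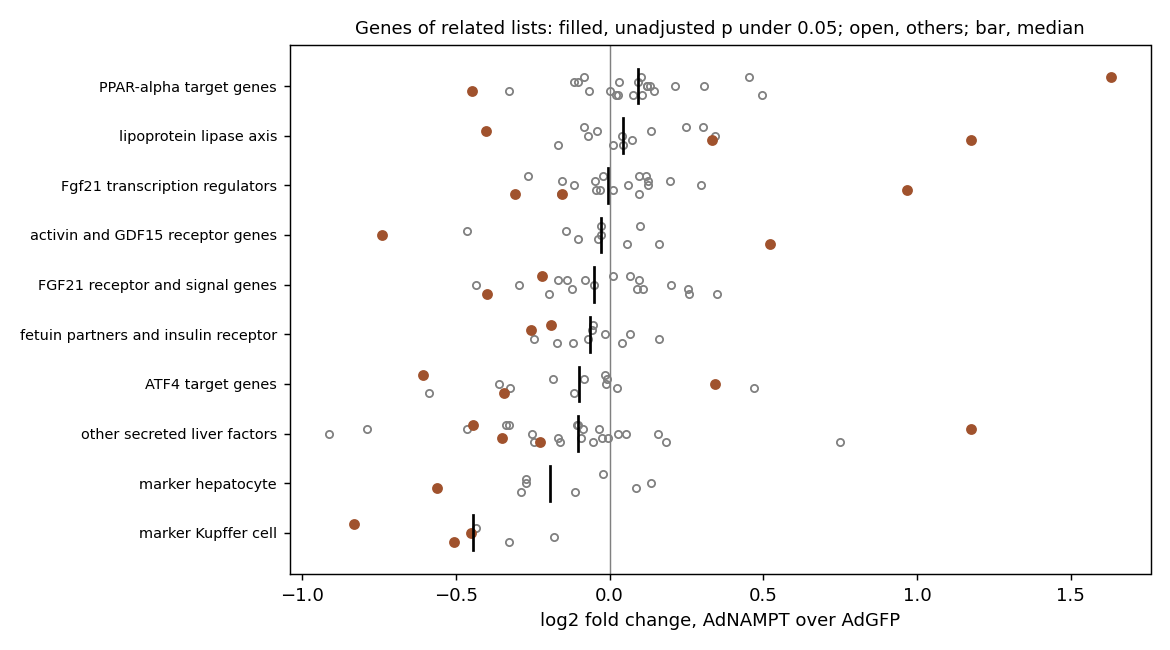
Log2 fold change, AdNAMPT over AdGFP, of every tested gene on the 8 lists and of the hepatocyte and Kupffer cell markers; filled points have an unadjusted p under 0.05, and bars mark list medians. Medians of the 8 lists lie between -0.10 and 0.09, that of the Kupffer cell markers at -0.44, and Fgf21 and Angptl8 are the highest points.

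Upstream of Fgf21, the list of 20 transcription regulators had 10 estimates above and 10 below 0, with a median of -0.0051. Klf15, a fasting-responsive regulator of amino acid catabolism, had the smallest unadjusted p (0.00341, limma adjusted p = 0.300), with an estimate of -0.31 and groups that did not overlap on TMM-scaled CPM, as for 4.8% of all genes, but did on CPM by library size. Bhlhe41, a circadian repressor, was estimated at 0.97 (adjusted p = 0.453) from 0.777 to 2.80 CPM in AdGFP and 2.11 to 4.58 CPM in AdNAMPT. Of ATF4 target genes, 14 of 21 were tested, with 3 estimates above and 11 below 0 and a median of -0.10. They included Slc3a2, the heavy chain of amino acid transporters, at -0.34 (adjusted p = 0.300) and Cth, the cystathionine gamma-lyase gene, at -0.61 (adjusted p = 0.464). Of 24 PPAR-alpha target genes, 23 were tested, Fgf21 and Angptl4 among them, with 17 above and 6 below 0 and a median of 0.09. After Fgf21 its smallest p belonged to Cyp4a31, a fatty acid omega-hydroxylase, at -0.45 (adjusted p = 0.492).

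Downstream, 19 of 22 FGF receptor and signal genes were tested, with 9 above and 10 below 0 and a median of -0.05. Grb2, the adaptor that links receptors to Ras, was at -0.40 (limma adjusted p = 0.453) and Fgf1, encoding a further FGF ligand, at -0.22 (adjusted p = 0.487). Among 11 of 17 activin and GDF15 receptor genes tested, 4 were above and 7 below 0, with a median of -0.03. Acvr2b, an activin receptor, was at -0.74 (adjusted p = 0.426) and Inhbb, the activin beta B subunit, at 0.52 (adjusted p = 0.492). All 12 fetuin partners and insulin receptor genes were tested, 3 above and 9 below 0, with a median of -0.06. Hrg, a relative of the fetuins, was at -0.26 (adjusted p = 0.438) and Met, the hepatocyte growth factor receptor, at -0.19 (adjusted p = 0.511).

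Of the other secreted liver factors, 26 were tested, with 6 above and 20 below 0 and a median of -0.10. Angptl8, an insulin-responsive regulator of lipoprotein lipase, had the smallest unadjusted p of the 8 lists (0.00267) and an estimate of 1.18 with SE 0.31 (limma adjusted p = 0.275). It measured 88.0, 92.8, 41.4 and 52.7 CPM in AdGFP and 144.8, 163.7, 229.2 and 87.8 CPM in AdNAMPT, where replicate 4 alone fell within the AdGFP range. Igf1, the growth hormone effector, was at -0.35 (adjusted p = 0.350). On the lipoprotein lipase list, which also holds Angptl8, 10 of 15 estimates were above and 5 below 0, with a median of 0.04. Its Lipc, encoding hepatic lipase, was at -0.40 (adjusted p = 0.358).

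Markers of other liver cells stood as follows. All 6 Kupffer cell markers had estimates below 0, with a median of -0.44, and summed to 210.8 to 264.3 CPM in AdGFP and 154.2 to 253.6 CPM in AdNAMPT. Of these Vsig4 was at -0.51 (limma adjusted p = 0.211) and Timd4 at -0.83 (adjusted p = 0.326), and neither overlapped between groups on TMM-scaled CPM, as for 4.8% of all genes. On CPM by library size Timd4 overlapped and Vsig4 did not. Sinusoidal endothelial markers summed to 251.4 to 301.2 CPM in AdGFP and 286.2 to 319.3 CPM in AdNAMPT, stellate cell markers to 311.6 to 358.2 CPM and 342.3 to 365.0 CPM, and T cell markers to 1.25 to 2.05 CPM and 1.58 to 4.13 CPM. Hepatocyte markers had 2 estimates above and 6 below 0, with a median of -0.19. The 2 of smallest p were Tat, encoding tyrosine aminotransferase, at -0.56 (adjusted p = 0.317) and Cps1, the urea cycle enzyme gene, at -0.27 (adjusted p = 0.577), while Ttr was at 0.13 and Apoa1 at 0.09. Sinusoidal endothelial markers had 3 above and 3 below 0, with a median of 0.06, and stellate cell markers 2 above and 4 below, with a median of -0.05. Other markers with the smallest p of their list were Stab1 at 0.22, Lyve1 at 0.34, Col1a1 at 0.64, Ecm1 at -0.30, Fabp4 at -0.29 and Retn at 0.89, none of which changed. Their part in the values of the 9 genes was not tested.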

How the data were processed

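Liver RNA of 8 db/db mice was sequenced, 1 library each. The authors aligned 50-base single reads to GRCm38 (Ensembl 76) with STAR (2.4.0b per the labels) and counted them per gene with featureCounts 1.4.5, whose strand setting is not given in the sources used here. The labels name Ribo-Zero depletion, the study's methods poly-A selection. The deposited values are raw counts, the authors' CPM (counts over the library's own total) and the authors' RPKM (CPM over exonic length in kilobases). Symbols came from GENCODE M21 (40340 of 41388 features matched).

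The 355 ribosomal RNA features were left out, as were genes not over 1 CPM in at least 3 libraries, except the 9 members, which left 12271. Fits without 1 library asked for 2 libraries. Counts were TMM-scaled and fitted with limma (voomWithQualityWeights, then lmFit and eBayes), the design holding group and no covariate (R 4.3.3, limma 3.58.1, edgeR 4.0.16), with Benjamini-Hochberg adjustment over all genes tested. TMM-scaled log2 CPM used a prior count of 2. Replicates are separate mice. Levels and intervals rest on 12006713 to 19879814 counts per library. Poisson intervals and floors cover counting error only. Confidence intervals of fold changes come from the limma fit and also cover variation between mice. The fits were tested on simulated data, which held only genes passing the filter without the exemption that kept Fgf21.

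Beside the 9 genes and Nampt, the 2 genes of smallest p in each list and the 5 genes most like Fgf21 are named; others are marked. The members and lists were chosen with earlier results of these data known. Alternatives were edgeR's quasi-likelihood test, DESeq2 1.42.0, no sample weights, other scalings and filters, replicate number as a block, and each library left out in turn. The replicate numbers name different animals, and deviations from the group means correlated between same-numbered mice at 0.22, -0.045, 0.21 and 0.0053, so the numbers were not taken as pairs.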

Additional observations from a re-analysis of the deposited data

How the results depend on the processing

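No gene of the 8 related lists and none of the 9 genes changed under the 17 alternatives, of which 16 tested Fgf21, since the filter without the exemption leaves it out. The number of all genes changed moved from 34 to 75 with DESeq2, where 15 were higher (20.0%), and to 39 with library size alone as the scaling, where 8 were higher (20.5%, against 5.88%). DESeq2 called 1 marker gene, Vsig4 (adjusted p = 0.0393). Leaving out 1 library gave 28 to 38 changed genes and 0 to 2 members whose groups did not overlap. Of 152 estimates for the 9 genes, 147 kept direction and side of the threshold; the other 5 were of Klb, which turned positive with library size alone (0.084) and in 4 of the fits without 1 library, whose range was -0.15 to 0.13. The Nampt estimate turned negative in 3 of the fits without 1 library, whose range was -0.079 to 0.27. The cause was not tested. The log2 estimate of Fgf21 ran from 1.17 without AdGFP replicate 4 to 1.89 without AdNAMPT replicate 1, with adjusted p from 0.260 to 0.700. For Gdf15 it was lowest without AdNAMPT replicate 3 (0.19) and highest without AdGFP replicate 3 (0.72), and for Angptl4 it was -0.44 without AdGFP replicate 2 and -0.11 without AdGFP replicate 3. Of the 9 genes, 1 to 4 had an unadjusted p under 0.05, with 1 when sample weights or AdGFP replicate 4 were left out and 2 without AdNAMPT replicate 3. With replicate number as a block 41 genes changed, none of the 9 among them. Same-numbered mice did not always correlate best. At 2 to 56 reads per library, depth limits what can be said of Fgf21.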
